A study of Mus musculus with 24 samples.

Results

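The 10 genes described here belong to the transcriptional arm of the integrated stress response that runs through the transcription factor ATF4: *Atf4*, *Ddit3*, *Atf3*, *Trib3*, *Chac1*, *Sesn2*, *Asns*, *Psat1*, *Phgdh* and *Shmt2*. They were taken by symbol from a count table of 55291 gene symbols, and all 10 were found and passed the filter on low counts in every fit. RNA was sequenced from mouse C2C12 myoblasts, an established line of muscle precursor cells, in which a subunit of a SWI/SNF chromatin remodeling complex had been knocked down (KD). The 4 cell lines were a control with a scrambled shRNA (scr) and KDs of *Baf180* (gene *Pbrm1*, a subunit of the PBAF complex), *Baf250a* (gene *Arid1a*, of the canonical BAF complex) and *Brd9* (of the non-canonical BAF complex). Each line was cultured for 48 h without added metal (NT), with 100 µM CuSO4 or with 50 µM ZnSO4, and 2 biological replicates were sequenced in each of the 12 conditions, 24 libraries in all. All lines, scr included, carried a lentiviral shRNA, were kept under puromycin and were harvested as proliferating cells, and which shRNA each KD library carried is not given in the sources used here. The sample labels name primary mouse myoblasts and a lipofectamine knockdown where the methods describe transduced C2C12 cells.

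The integrated stress response starts when a kinase such as PERK, GCN2, PKR or HRI phosphorylates the translation initiation factor eIF2. General protein synthesis is then slowed while translation of *Atf4* mRNA increases, so that ATF4 protein can rise without a change in its mRNA, and RNA counts do not measure that step. ATF4 induces other transcription factors, genes that damp or redirect the response, and enzymes that make amino acids, and in muscle cells the pathway is known from amino acid shortage and mitochondrial stress.

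ATF4 binds with C/EBP partners to a composite element (CARE). The letters TGATGNAA, on either strand, were searched from 250 bases before to 50 bases after the start of every gene in RefSeq (GRCm38.p6), where all 10 genes were found. The element was present in 4 of the 10 genes and in 3.97% of 32851 promoters. The 4 windows are shown because they include *Atf3* and *Trib3*, the members whose levels differed most between the KDs and scr. Capitals mark the element, each window reads 5′ to 3′ on the strand of its gene, and in all but *Asns* the element lies on the opposite strand and appears as its reverse complement.
Atf3 (chr1:191183425-191183454, minus strand): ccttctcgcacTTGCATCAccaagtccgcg
Trib3 (chr2:152344028-152344057, minus strand): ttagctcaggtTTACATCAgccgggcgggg
Chac1 (chr2:119351038-119351067, plus strand): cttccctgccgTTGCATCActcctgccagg
Asns (chr6:7693214-7693243, minus strand): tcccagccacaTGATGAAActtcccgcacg
The first base of the element lay at position -110 from the RefSeq start in *Atf3*, +15 in *Trib3*, -193 in *Chac1* and -23 in *Asns*. A metal response element core (TGCACNC or TGCGCNC, either strand) was present near the start of 4 members (*Ddit3*, *Atf3*, *Asns* and *Psat1*), against 25.7% of all promoters. The cAMP response element TGACGTCA was present in none of the 10, against 1.79% of all promoters. A match is a match of letters, and elements outside these windows were not searched.

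Total counts were 12719173 to 75179394 in 23 libraries and 495778 in the second Zn library of *Baf250a* KD, in which the members had between 3 (*Atf3*) and 208 (*Atf4*) counts. The targeted gene was lower in all 6 libraries of its KD than in all 6 scr libraries (*Pbrm1* up to 75.7 against 99.9 CPM or more, *Arid1a* up to 144 against 266 or more, *Brd9* up to 17.9 against 27.2 or more). All 6 myoblast markers were detected, with a summed level of 2840 to 4290 CPM in scr, 1910 to 2150 in *Baf180* KD, 1310 to 1510 in *Baf250a* KD and 2000 to 2400 in *Brd9* KD. Most of the sum is *Des* and *Itga7* (means of 2370 and 1020 CPM in untreated scr), and *Myod1* and *Pax7* did not follow it. Untreated means in scr, *Baf180*, *Baf250a* and *Brd9* KD were 113, 120, 144 and 90.8 CPM for *Myod1* and 1.55, 2.93, 0.653 and 4.11 for *Pax7*. *Pax7* ranged from 0 to 0.766 CPM in *Baf250a* KD with Zn. The summed level of 6 markers of differentiating myocytes was 21.8 to 34.1 CPM in scr, 72.3 to 105 in *Baf180* KD, 32.8 to 56.4 in *Baf250a* KD and 12.7 to 20.9 in *Brd9* KD. Summed markers of macrophages and adipocytes stayed at or below 0.787 CPM, and those of endothelial cells were 3.49 to 5.57 CPM in scr and at most 2.06 CPM in any KD. The zinc-responsive *Mt2* was higher with Zn in every line. Libraries also differed in how counts followed GC content, with a mean slope of log2 CPM per 10 points of GC from -0.294 in scr with Zn to 0.214 in scr without metal, so each test of a member is also given after a correction for GC content and transcript length where this changed a call. Mitochondrially encoded genes took 0.856% and 0.991% of counts in the untreated scr libraries, 1.28% to 1.83% in the 6 untreated KD libraries and 2.05% and 2.13% in scr with Zn.

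Levels are given as CPM (counts scaled to the size of the library) after TMM scaling over the 24 libraries. Per kb of transcript in the untreated scr cells, *Atf4* itself was the most abundant member (262 ± 14.1 CPM per kb, SD, n = 2), followed by *Shmt2* (229 ± 28.1), *Psat1* (159 ± 17.3), *Asns* (131 ± 21.7) and *Phgdh* (118 ± 17.9). The stress-induced members were lower, with *Ddit3* at 88.5 ± 3.02 CPM per kb, *Chac1* at 55.8 ± 4.51, *Trib3* at 42.3 ± 7.21, *Atf3* at 36.7 ± 1.89 and *Sesn2* at 32.8 ± 1.67. *Atf4* and *Shmt2*, *Psat1* and *Asns*, *Asns* and *Phgdh*, and *Trib3* and *Atf3* were neighbours in this order that differed by less than the sum of their SDs.

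**Figure D1:**
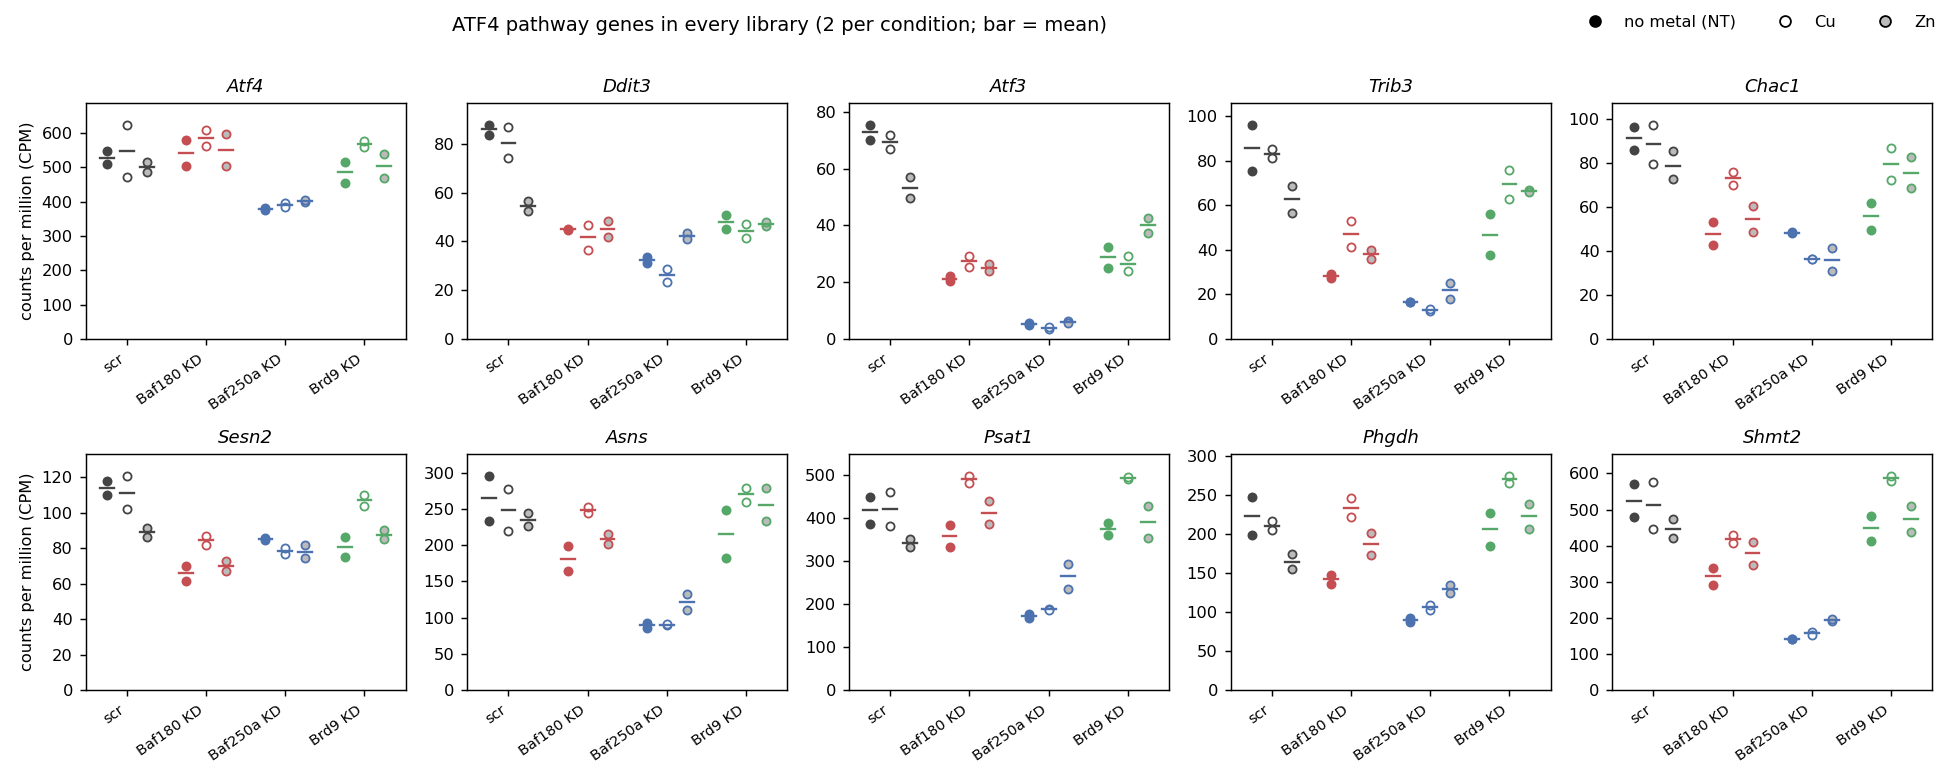
Level of each of the 10 genes in CPM (vertical axes from 0) in the 24 libraries, grouped by cell line along the horizontal axis, with 1 point per library, filled for no metal, open for Cu and gray for Zn, and a bar at the mean of the 2 replicates. The 6 *Baf250a* KD libraries lie below the 6 scr libraries in every panel, with the largest ratio for *Atf3* (3.44 to 6.27 against 49.5 to 75.5 CPM).

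The first question was whether loss of a subunit alone changed these genes. Without metal, 8 of the 10 members were lower in *Baf180* KD than in scr, all 10 were lower in *Baf250a* KD and 5 were lower in *Brd9* KD, and no member was higher in any KD (edgeR, adjusted p under 0.05). Over all genes tested, 19.3% were lower in *Baf180* KD, 28.9% in *Baf250a* KD and 14.1% in *Brd9* KD. The median log2 fold change of the members was -0.75, -1.36 and -0.38, against 0.03, 0.00 and 0.01 over all genes. The exceptions in *Baf180* KD were *Atf4* and *Psat1*, and the 5 lower in *Brd9* KD were *Ddit3*, *Atf3*, *Trib3*, *Chac1* and *Sesn2*. The 3 comparisons share the same 2 scr libraries, so each gene's values are given side by side and no overlap between the KDs is drawn from them. *Baf250a* KD had the lowest mean for 8 members and *Baf180* KD for the other 2, *Chac1* and *Sesn2*, while scr had the highest mean for 9, the exception being *Atf4*.

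Of the transcription factors, *Atf3* (chr1:191170296-191218039), a stress-induced repressor and activator of the ATF/CREB family, changed most. It stood at 70.2 and 75.5 CPM in the untreated scr libraries, at 20.6 and 22.1 in *Baf180* KD, at 5.69 and 5.13 in *Baf250a* KD and at 32.3 and 25.2 in *Brd9* KD. Every KD library lay below both scr libraries, and those of *Baf250a* KD were the lowest. *Atf3* was 3.37-fold lower in *Baf180* KD (log2 fold change -1.75 ± 0.12 SE, edgeR adjusted p = 5.74e-07), 13.4-fold lower in *Baf250a* KD (-3.75 ± 0.13, adjusted p = 1.77e-10) and 2.5-fold lower in *Brd9* KD (-1.32 ± 0.13, adjusted p = 3.97e-04). *Ddit3* (chr10:127290774-127296288) encodes CHOP, which promotes cell death in prolonged stress. Its levels were 87.8 and 83.7 CPM in scr, 45.2 and 44.6 in *Baf180* KD, 33.5 and 31.3 in *Baf250a* KD and 45.0 and 50.8 in *Brd9* KD. No KD library reached scr, and *Ddit3* was 1.89-fold lower in *Baf180* KD (log2 -0.92 ± 0.11, edgeR adjusted p = 4.79e-05), 2.65-fold lower in *Baf250a* KD (-1.40 ± 0.11, adjusted p = 2.51e-07) and 1.77-fold lower in *Brd9* KD (-0.82 ± 0.12, adjusted p = 0.00214). The GENCODE M21 annotation holds 2 overlapping gene models under the symbol *Ddit3*, so its counts are uncertain if reads were split between them.

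*Atf4* mRNA (chr15:80255184-80257541) differed far less than these targets. It stood at 508 and 548 CPM in scr, 578 and 504 in *Baf180* KD, 377 and 380 in *Baf250a* KD and 514 and 455 in *Brd9* KD. The *Baf180* and *Brd9* KD libraries overlapped scr, and only the *Baf250a* KD libraries were clear of it, 1.4-fold lower (log2 -0.48 ± 0.10, edgeR adjusted p = 0.00101). *Atf4* differed by 0.05 ± 0.11 in *Baf180* KD (edgeR adjusted p = 0.737) and by -0.11 ± 0.09 in *Brd9* KD (adjusted p = 0.419). After correction for GC *Atf4* was higher in *Baf180* KD (0.22 ± 0.07, edgeR adjusted p = 0.0351).

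The 3 effectors act on the response itself or on redox and growth. *Trib3* (chr2:152337422-152344032), a pseudokinase induced by ATF4 and CHOP that feeds back on ATF4, stood at 75.5 and 96.1 CPM in scr, 29.3 and 27.6 in *Baf180* KD, 16.6 and 16.7 in *Baf250a* KD and 56.0 and 37.5 in *Brd9* KD. No KD library reached scr, and after *Atf3* it had the largest fold change of the members in each KD. *Trib3* was 2.99-fold lower in *Baf180* KD (log2 -1.58 ± 0.13, edgeR adjusted p = 3.46e-06), 5.16-fold lower in *Baf250a* KD (-2.37 ± 0.13, adjusted p = 1.36e-08) and 1.81-fold lower in *Brd9* KD (-0.86 ± 0.18, adjusted p = 0.0113). *Chac1* (chr2:119351229-119354381) encodes an enzyme that breaks down glutathione. It stood at 86.1 and 96.5 CPM in scr, 53.1 and 42.7 in *Baf180* KD, 48.3 and 48.5 in *Baf250a* KD and 61.8 and 49.7 in *Brd9* KD. No KD library reached scr, and the range of *Baf180* KD overlapped those of the other two. *Chac1* was lower by the same log2 fold change of -0.92 in *Baf180* KD (± 0.12, edgeR adjusted p = 1.41e-04) and *Baf250a* KD (± 0.11, adjusted p = 1.24e-05), and by -0.69 ± 0.12 in *Brd9* KD (adjusted p = 0.00573). *Sesn2* (chr4:132492032-132510501), a leucine sensor that restrains mTORC1, stood at 110 and 118 CPM in scr, 70.0 and 61.7 in *Baf180* KD, 84.7 and 85.7 in *Baf250a* KD and 86.5 and 75.3 in *Brd9* KD. Its KD libraries lay below both scr libraries, with smaller fold changes than those of the other two effectors. *Sesn2* was 1.71-fold lower in *Baf180* KD (log2 -0.78 ± 0.11, edgeR adjusted p = 1.88e-04), 1.34-fold lower in *Baf250a* KD (-0.42 ± 0.10, adjusted p = 0.00372) and 1.39-fold lower in *Brd9* KD (-0.48 ± 0.10, adjusted p = 0.0126).

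The number of the 4 enzymes of amino acid synthesis that passed against scr differed by KD. The KDs were not tested against each other. *Phgdh* (chr3:98313170-98339990) and *Psat1* (chr19:15904678-15947337) catalyze the opening steps of serine synthesis, *Shmt2* (chr10:127517123-127522444) turns serine into glycine and a carbon unit in mitochondria, and *Asns* (chr6:7675169-7693254) makes asparagine. All 4 were lower in *Baf250a* KD, 3 were lower in *Baf180* KD, and none passed in *Brd9* KD. *Shmt2* stood at 480 and 571 CPM in scr, 337 and 292 in *Baf180* KD, 141 and 142 in *Baf250a* KD and 482 and 413 in *Brd9* KD. The *Brd9* KD libraries overlapped scr and those of the other KDs did not. *Shmt2* was 1.65-fold lower in *Baf180* KD (log2 -0.73 ± 0.12, edgeR adjusted p = 5.90e-04) and 3.72-fold lower in *Baf250a* KD (-1.90 ± 0.11, adjusted p = 1.85e-08), and differed by -0.21 ± 0.11 in *Brd9* KD (adjusted p = 0.177).

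*Asns* stood at 234 and 296 CPM in scr, 199 and 164 in *Baf180* KD, 86.1 and 92.3 in *Baf250a* KD and 249 and 182 in *Brd9* KD. It was 2.97-fold lower in *Baf250a* KD (log2 -1.57 ± 0.12, edgeR adjusted p = 3.06e-07) and 1.45-fold lower in *Baf180* KD (-0.53 ± 0.13, adjusted p = 0.00728). *Phgdh* stood at 199 and 247 CPM in scr, 148 and 136 in *Baf180* KD, 92.4 and 86.7 in *Baf250a* KD and 227 and 185 in *Brd9* KD. The *Brd9* KD libraries overlapped scr for both genes, and those of *Baf180* and *Baf250a* KD did not. *Phgdh* was 1.56-fold lower in *Baf180* KD (log2 -0.64 ± 0.12, edgeR adjusted p = 0.00146) and 2.49-fold lower in *Baf250a* KD (-1.32 ± 0.12, adjusted p = 1.17e-06). *Psat1*, its partner in the same pathway, stood at 385 and 449 CPM in scr, 384 and 332 in *Baf180* KD, 176 and 167 in *Baf250a* KD and 388 and 359 in *Brd9* KD. Only the *Baf250a* KD libraries were far from scr, 2.43-fold lower (log2 -1.28 ± 0.11, edgeR adjusted p = 5.71e-07), and the difference in *Baf180* KD was -0.21 ± 0.12 (adjusted p = 0.175). In *Brd9* KD the log2 differences of *Asns*, *Psat1* and *Phgdh* were -0.28 ± 0.15, -0.14 ± 0.10 and -0.10 ± 0.13, and their edgeR adjusted p ran from 0.192 to 0.585.

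**Figure D2:**
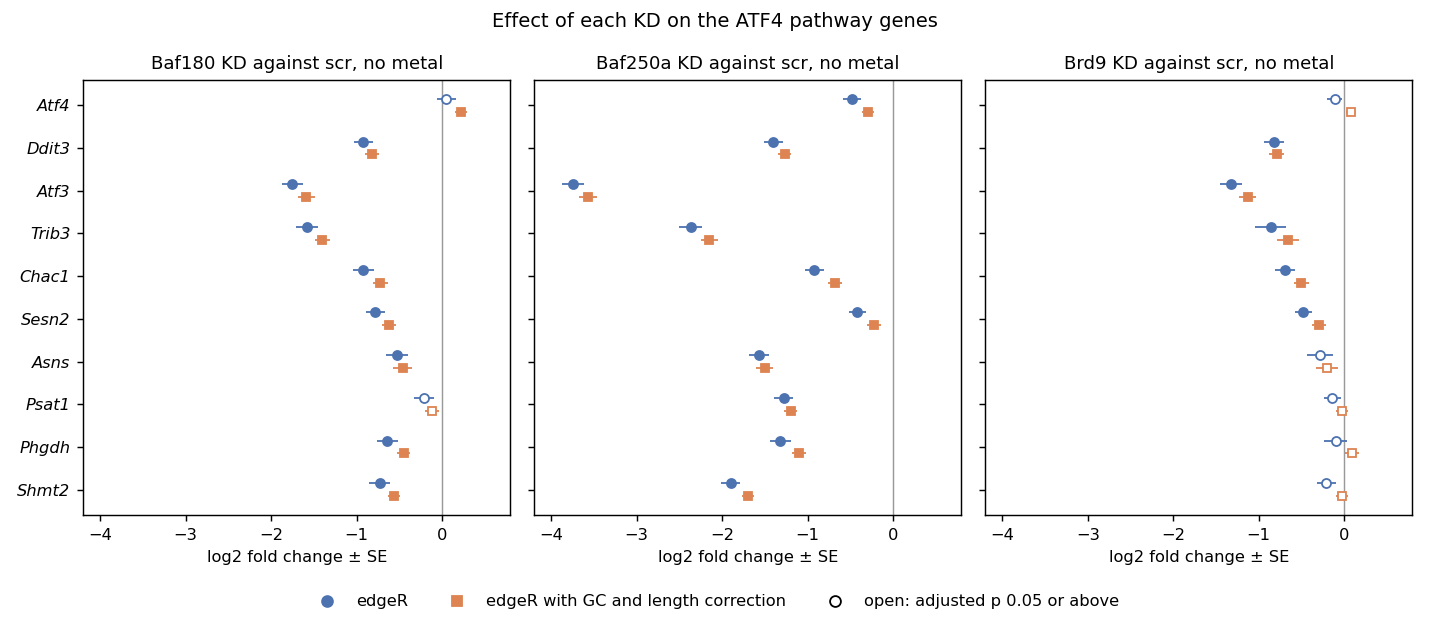
Log2 fold change (horizontal axes, ± SE) of the 10 genes in each KD against scr without metal, from edgeR as fitted (blue circles) and after correcting for GC and transcript length (orange squares), open where the adjusted p was 0.05 or above. The points of *Baf250a* KD all lie below 0, down to -3.75 for *Atf3*, while *Atf4* lies near 0 in *Baf180* and *Brd9* KD.

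After correction for GC the counts of lower members stayed at 8, 10 and 5, against 20.1%, 30.2% and 13.7% of genes, with medians of -0.59, -1.24 and -0.25. Libraries were left out in turn from the uncorrected fits. The count in *Brd9* KD was 2 without the second untreated *Brd9* KD library. The members' changes moved with the cell line, as did the summed myoblast and differentiation markers and the mitochondrial share given above, and the part of these in the result was not tested.

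Across all treatments, the 6 libraries of a KD were compared with the 6 of scr. All 10 members were lower in every *Baf250a* KD library than in every scr library, where 13.5% of tested genes showed such a gap in this direction. In *Baf180* KD these were *Ddit3*, *Atf3* and *Trib3* (3 members, against 8.85% of genes), and in *Brd9* KD *Ddit3* and *Atf3* (2 members, against 6.36%). No member was above scr in this sense in any KD, where 14.6%, 14.0% and 9.33% of genes were in *Baf180*, *Baf250a* and *Brd9* KD. *Atf3* in *Baf250a* KD ranged from 3.44 to 6.27 CPM (median 5.41), against 49.5 to 75.5 CPM (median 68.6) in scr. *Ddit3* had its scr range widened by Zn, from 52.3 to 87.8 CPM, and still lay above the 36.5 to 48.4 CPM of *Baf180* KD and the 41.5 to 50.8 CPM of *Brd9* KD.

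Genes around the members in the same pathway were read from 9 lists of 79 genes. Without metal 39 of 79 tested were lower and 11 higher in *Baf180* KD, 49 and 15 of 78 in *Baf250a* KD, and 36 and 5 of 77 in *Brd9* KD. Of all genes tested, 19.3%, 28.9% and 14.1% were lower and 21.7%, 28.9% and 15.1% higher. Corrected for GC, the counts were 45 lower and 11 higher, 53 and 18, and 37 and 4. With that correction 20.1%, 30.2% and 13.7% of all genes were lower and 20.9%, 28.4% and 14.2% higher. The aminoacyl-tRNA synthetases, which charge tRNAs with amino acids, had 10, 13 and 8 of 13 genes lower in *Baf180*, *Baf250a* and *Brd9* KD (12, 13 and 8 corrected for GC) and none higher. The leucine enzyme *Lars* was lower, at -0.96 ± 0.10, -1.48 ± 0.10 and -0.72 ± 0.09 on the log2 scale, with edgeR adjusted p of 2.62e-05, 6.17e-08 and 0.00119. Enzymes of serine, glycine, proline and one-carbon metabolism outside the members had 7 of 10, 9 of 9 and 7 of 9 genes lower (7, 9 and 6 corrected for GC). The mitochondrial folate enzyme *Aldh1l2* differed by -1.73 ± 0.11, -2.72 ± 0.11 and -0.69 ± 0.10 (edgeR adjusted p = 2.43e-07, 6.36e-10 and 0.00214). In *Baf180* KD 1 gene of this list was higher, *Cbs*, which had no count in either untreated scr library.

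Upstream of ATF4, the eIF2 kinase gene *Eif2ak3* (PERK) was lower, at -1.23 ± 0.11, -1.64 ± 0.11 and -1.17 ± 0.11 on the log2 scale (edgeR adjusted p = 5.06e-06, 6.14e-08 and 2.68e-04 in *Baf180*, *Baf250a* and *Brd9* KD). *Eif2ak4* (GCN2), the kinase that senses uncharged tRNA, was higher in *Baf180* KD (0.60 ± 0.12, edgeR adjusted p = 0.00272) and *Baf250a* KD (0.50 ± 0.12, adjusted p = 0.00318). *Eif2ak2* (PKR), the kinase that senses double-stranded RNA, was higher in *Baf250a* KD (0.75 ± 0.14, adjusted p = 7.18e-04). *Ppp1r15a* (GADD34), the subunit that directs dephosphorylation of eIF2, was lower, at -0.92 ± 0.12, -1.18 ± 0.11 and -0.65 ± 0.11 (edgeR adjusted p = 1.15e-04, 1.82e-06 and 0.00474). Of the subunits of eIF2 and its exchange factor eIF2B, 4, 6 and 3 of 8 were lower (6, 8 and 3 corrected for GC), among them *Eif2b4* in each KD (-0.67 ± 0.12, -0.76 ± 0.12 and -0.51 ± 0.12). The beta subunit gene *Eif2s2* was higher in *Brd9* KD (0.58 ± 0.18, edgeR adjusted p = 0.0382), a call lost with the correction (0.03, adjusted p = 0.82).

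The other lists had genes past the test in both directions. Of all genes tested, 19.3%, 28.9% and 14.1% were lower and 21.7%, 28.9% and 15.1% higher in *Baf180*, *Baf250a* and *Brd9* KD. Among other ATF4 or CHOP targets, 6, 7 and 7 of 11 were lower and 2, 4 and 2 higher (5, 6 and 6 lower and 2, 3 and 1 higher corrected for GC). The secreted glycoprotein gene *Stc2* was lower, at -1.52 ± 0.11, -3.14 ± 0.12 and -1.55 ± 0.10 (edgeR adjusted p = 8.13e-07, 4.26e-10 and 8.06e-05), while the lipoprotein receptor gene *Vldlr* was higher by 3.18 ± 0.45, 5.86 ± 0.30 and 3.99 ± 0.38 (adjusted p = 1.98e-04, 4.59e-09 and 3.35e-04). Amino acid transport had 4, 6 and 3 genes lower of 9, 9 and 8 tested (6, 6 and 5 corrected for GC) and 1 higher, in *Baf250a* KD. The lower genes included *Slc7a5*, which carries large neutral amino acids, at -0.73 ± 0.11, -1.68 ± 0.11 and -0.43 ± 0.11. Of the bZIP partners and relatives, 5 of 9 were lower in each KD, including *Atf5* and *Jund*, and 3, 3 and 1 were higher, including *Maf* in each. The ATF6 and XBP1 arms of the unfolded protein response had 1 of 13 genes lower in each KD and 4, 5 and 1 higher, and with the GC correction 2, 4 and 2 lower and 4, 9 and 1 higher. As fitted without it, the lower gene was the chaperone gene *Hspa5* in *Baf180* KD (-0.45 ± 0.11, edgeR adjusted p = 0.00562) and the degradation gene *Edem1* in *Brd9* KD (-0.44 ± 0.11, adjusted p = 0.0225). The higher genes included *Dnajb9* in *Baf180* KD (0.63 ± 0.14, adjusted p = 0.00479) and *Baf250a* KD (1.18 ± 0.13, adjusted p = 5.64e-06). *Herpud1* was also higher in both (0.40 ± 0.12 and 0.61 ± 0.10, edgeR adjusted p = 0.0189 and 2.57e-04), as was *Hsp90b1* in *Brd9* KD (0.59 ± 0.19, adjusted p = 0.0472). Corrected for GC, *Dnajb9* in *Baf180* KD (adjusted p = 0.0911) and *Hsp90b1* in *Brd9* KD (0.0822) did not pass.

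**Figure D3:**
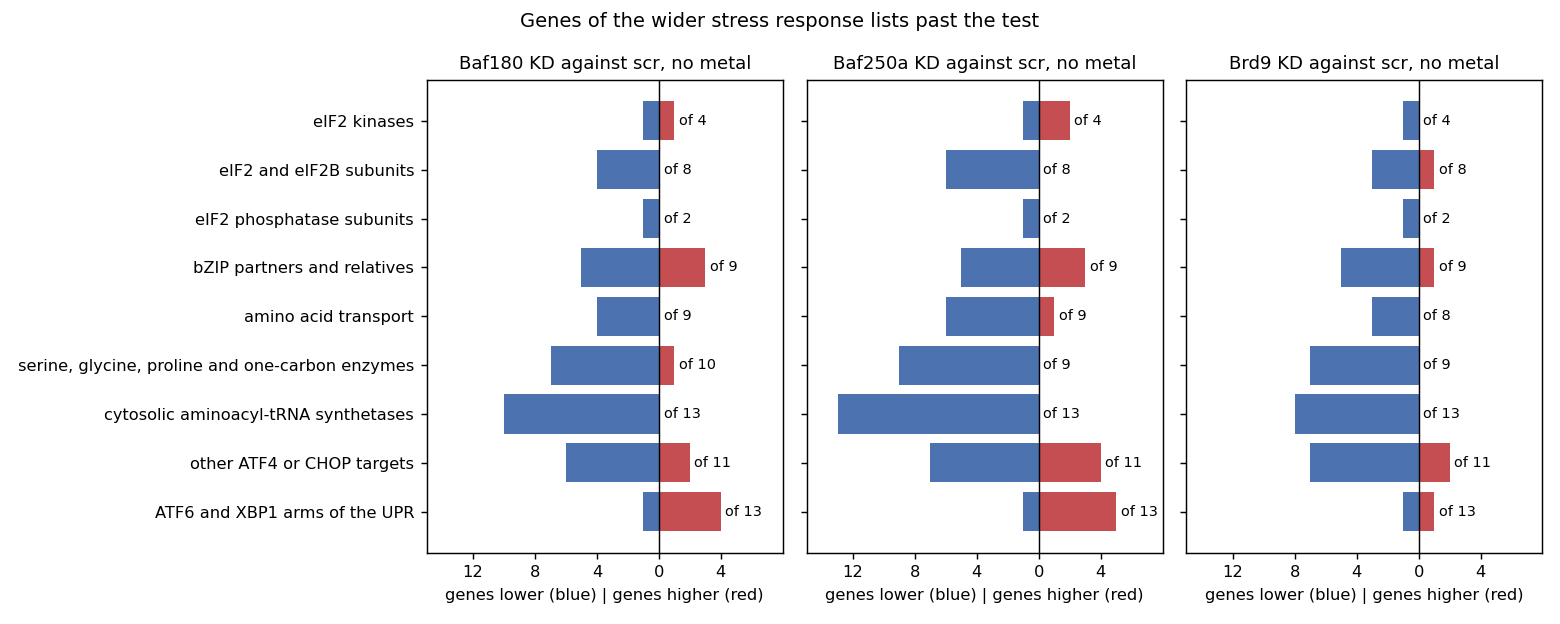
Number of genes lower (blue, to the left) and higher (red, to the right) in each KD against scr without metal for 9 lists around the members, with edgeR adjusted p under 0.05 and the number tested printed beside each bar. The tRNA synthetases have 10, 13 and 8 genes to the left and none to the right. The ATF6 and XBP1 arms have 4 and 5 of 13 genes to the right in *Baf180* and *Baf250a* KD, where 21.7% and 28.9% of all genes tested were higher.

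The next question was whether Cu or Zn changed the members within a line. The untreated libraries of each KD entered both these tests and the comparison with scr above. A lower untreated level and a rise with metal are therefore not independent. With Cu, 7 of 10 were higher than without metal in *Baf180* KD (*Trib3*, *Chac1*, *Sesn2*, *Asns*, *Psat1*, *Phgdh* and *Shmt2*), where 5.46% of all tested genes were higher. The median log2 fold change was 0.40, against -0.01 over all genes. *Phgdh* went from 148 and 136 CPM without metal to 246 and 222 CPM with Cu, 1.61-fold higher (log2 0.69 ± 0.09, edgeR adjusted p = 0.00541). *Trib3* went from 29.3 and 27.6 to 52.7 and 41.2 CPM, also 1.61-fold higher (0.69 ± 0.12, adjusted p = 0.0118). *Chac1* went from 53.1 and 42.7 to 76.0 and 70.2 CPM (0.58 ± 0.12, edgeR adjusted p = 0.0178). In these 3 genes both Cu libraries lay above both untreated ones, and all of them stayed below or within the untreated scr range of 75.5 to 96.1 CPM for *Trib3*, 86.1 to 96.5 for *Chac1* and 199 to 247 for *Phgdh*.

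The other members that rose with Cu in *Baf180* KD did so by 0.33 to 0.42 on the log2 scale. *Asns* went from 199 and 164 to 245 and 253 CPM (0.42 ± 0.09, edgeR adjusted p = 0.0185), and *Psat1* from 384 and 332 to 498 and 480 CPM (0.42 ± 0.09, adjusted p = 0.0205). *Shmt2* rose by 0.38 ± 0.10 (adjusted p = 0.032) and *Sesn2* by 0.33 ± 0.09 (adjusted p = 0.0394). Both Cu libraries of *Psat1* lay above the untreated scr libraries of 385 and 449 CPM. Those of *Asns* lay within the scr range of 234 to 296 CPM, and those of *Shmt2* and *Sesn2* below scr. The transcription factors did not pass, with 0.08 ± 0.10 for *Atf4*, -0.15 ± 0.13 for *Ddit3* and 0.32 ± 0.11 for *Atf3* (edgeR adjusted p = 0.652, 0.457 and 0.0845). After the same correction 5 members were higher (*Trib3*, *Chac1*, *Asns*, *Psat1* and *Phgdh*), against 2.41% of genes. Libraries were left out in turn from the uncorrected fit. Without the second untreated *Baf180* KD library no member passed, and without the first Cu library 1 did. In the wider lists 18 of 79 genes were higher and 7 lower with Cu in *Baf180* KD, among them the serine phosphatase gene *Psph* (0.60 ± 0.11, edgeR adjusted p = 0.0115), and 5 and 6 with the GC correction. Of all genes, 8.3% were lower in that comparison, and 3.6% were with the correction.

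In scr cells no member passed with Cu in edgeR or DESeq2, where 0.0333% of genes changed in either direction in edgeR. None had an unadjusted p under 0.05, against 1559 of 15002 genes, and the log2 fold changes ran from -0.07 to 0.07. In *Baf250a* KD *Chac1* alone passed with Cu, going from 48.3 and 48.5 to 36.4 and 36.4 CPM (log2 -0.41 ± 0.10, edgeR adjusted p = 0.0366), where 0.646% of genes were lower. In that line 5 members had an unadjusted p under 0.05, against 1530 of 14706 genes. Among them *Atf3* (-0.49 ± 0.21), *Trib3* (-0.37 ± 0.13) and *Ddit3* (-0.32 ± 0.12) were below 0 and *Phgdh* (0.24 ± 0.09) above it. The *Chac1* call was lost in DESeq2, in a fit of all 24 libraries and without any 1 of the 4 libraries compared. In *Brd9* KD no member passed with Cu in edgeR (0.274% of genes changed), and 3 passed in DESeq2 (0.938% of genes were higher). An unadjusted p under 0.05 was found for 6 members and for 2426 of 14978 genes. Of the 10 fold changes 8 were positive, with a median of 0.34. *Trib3* there went from 56.0 and 37.5 to 62.9 and 75.9 CPM (0.52 ± 0.16, edgeR adjusted p = 0.22) and *Psat1* from 388 and 359 to 491 and 495 CPM (0.35 ± 0.08, adjusted p = 0.146). When genes with low counts were kept in the fit, 7 members were higher with Cu in *Brd9* KD, against 1.16% of genes. Whether the Cu responses of *Baf180* and *Brd9* KD differed was not tested.

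With Zn, members were lower in scr and higher in *Baf250a* KD. In scr 2 members were lower, where 7.13% of genes were. *Ddit3* went from 87.8 and 83.7 to 56.6 and 52.3 CPM, 1.48-fold lower (log2 -0.57 ± 0.12, edgeR adjusted p = 0.0283), and *Atf3* from 70.2 and 75.5 to 57.1 and 49.5 CPM, 1.29-fold lower (-0.37 ± 0.10, adjusted p = 0.0443). The Zn libraries of both genes lay below both untreated libraries. The mitochondrial share given above was higher in the same Zn libraries, and its part in the result was not tested. Corrected for GC, neither passed, at -0.65 ± 0.09 for *Ddit3* (edgeR adjusted p = 0.053) and -0.10 ± 0.09 for *Atf3* (adjusted p = 0.528), and 0.0533% of genes were lower. The correction is computed from GC content and transcript length, so how far a member moved under it was set by these. *Sesn2* (58.7% GC) went from -0.27 to 0.09 and *Atf4* (55.5% GC) from 0.01 to 0.33 on the log2 scale, and *Ddit3* has 45.6% GC. Libraries were left out in turn from the uncorrected fit. When 1 library was left out, 1 member passed without the first untreated library and none without the second or without either Zn library.

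In *Baf250a* KD 5 members were higher with Zn, where 8.85% of genes were, and 4 of them were *Asns*, *Psat1*, *Phgdh* and *Shmt2*, the enzymes of amino acid synthesis. *Psat1* went from 176 and 167 to 292 and 235 CPM, 1.63-fold higher (log2 0.70 ± 0.10, edgeR adjusted p = 4.92e-05). *Phgdh* went from 92.4 and 86.7 to 135 and 124 CPM (0.58 ± 0.10, adjusted p = 2.84e-04) and *Shmt2* from 141 and 142 to 191 and 198 CPM (0.46 ± 0.10, adjusted p = 0.00238). Both Zn libraries were above both untreated ones, and all stayed below the scr libraries of the same genes. *Ddit3* went from 33.5 and 31.3 to 43.6 and 40.8 CPM (0.42 ± 0.13, edgeR adjusted p = 0.0333) and *Asns* from 86.1 and 92.3 to 110 and 132 CPM (0.35 ± 0.10, adjusted p = 0.0225). With the GC correction *Ddit3*, *Psat1* and *Phgdh* remained higher, where 6.42% of genes were. *Chac1* (-0.40 ± 0.11, edgeR adjusted p = 0.0322) and *Sesn2* (-0.36 ± 0.09, adjusted p = 0.0201) were lower under it, where 4.82% were. Libraries were left out in turn from the uncorrected fit. The second Zn library is the shallow one, and without it 5 members passed. Without the first Zn library none did, and without the first and the second untreated library 3 and 2 did.

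In *Baf180* KD no member passed with Zn in edgeR (0.0197% of genes changed), and 3 had an unadjusted p under 0.05, against 1999 of 15241 genes. In DESeq2 1 member, *Phgdh*, was higher, as 0.364% of genes were. *Phgdh* went from 148 and 136 to 202 and 173 CPM (log2 0.38 ± 0.09, edgeR adjusted p = 0.289). In *Brd9* KD none passed with Zn in edgeR or DESeq2 (0.0334% of genes changed in edgeR). An unadjusted p under 0.05 was found for 3 members and for 451 of 14978 genes. The highest fold changes there were those of *Trib3*, from 56.0 and 37.5 to 66.6 and 66.0 CPM (0.49 ± 0.16), *Atf3*, from 32.3 and 25.2 to 42.8 and 37.4 CPM (0.47 ± 0.14), and *Chac1* (0.43 ± 0.13), each with an edgeR adjusted p of 1.

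**Figure D4:**
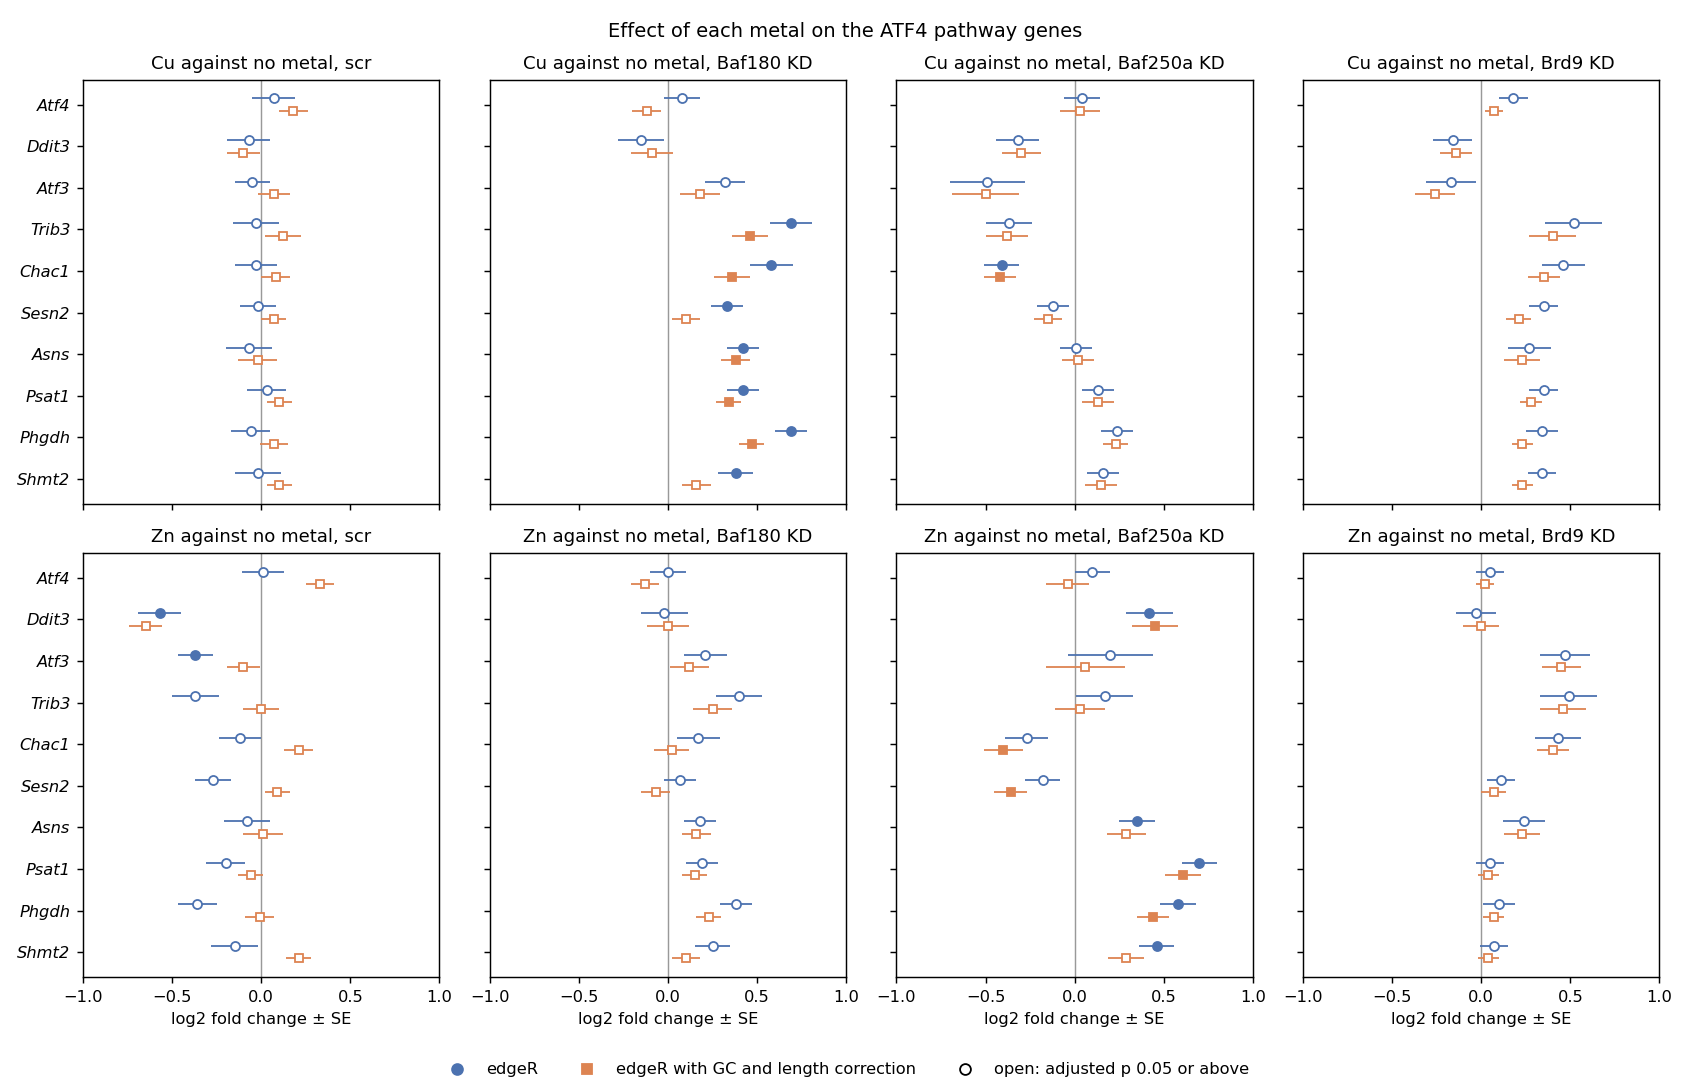
Log2 fold change (horizontal axes, ± SE) of the 10 genes with Cu (upper row) and Zn (lower row) against no metal in each cell line, from edgeR as fitted (blue circles) and after correcting for GC and transcript length (orange squares), open where the adjusted p was 0.05 or above. Filled blue circles number 7 for Cu in *Baf180* KD and 5 for Zn in *Baf250a* KD, and the corrected points for Zn in scr lie to the right of the others in 9 of 10 genes.

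Whether a metal acted differently in a KD than in scr was tested by subtracting the scr log2 fold change from that of the KD, with all 24 libraries fitted together. For Cu, 3 members differed in *Baf180* KD, all toward a higher response (5.39% of genes did so): *Phgdh* by 0.80 ± 0.16 (edgeR adjusted p = 0.00905), *Trib3* by 0.77 ± 0.22 (adjusted p = 0.0306) and *Chac1* by 0.66 ± 0.20 (adjusted p = 0.0395). Corrected for GC, *Phgdh* alone differed (0.46 ± 0.11, edgeR adjusted p = 0.048), against 0.533% of genes with a higher response. Fits with a library left out were made without this correction, for the count of 3. This count was 0 without the first Cu library of *Baf180* KD or the second untreated scr library, 1 without the second untreated *Baf180* KD library or the second scr Cu library, and 7 without the first untreated or the first Cu library of scr. For Cu no member differed in *Baf250a* KD (0.0121% of genes did), with none at an unadjusted p under 0.05, against 1274 of 16524 genes. None differed in *Brd9* KD either (0.0363% of genes did), and DESeq2 also called none. There 6 members had an unadjusted p under 0.05, against 2759 of 16524 genes.

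For Zn, 7 members had a higher response in *Baf180* KD than in scr (16.1% of genes did), 5 in *Baf250a* KD (17.3%) and 6 in *Brd9* KD (5.86%). The 3 differences share the untreated and Zn libraries of scr. *Ddit3* differed by 0.66 ± 0.17, 1.07 ± 0.19 and 0.64 ± 0.18 in *Baf180*, *Baf250a* and *Brd9* KD (edgeR adjusted p = 0.00865, 5.36e-04 and 0.0323). *Phgdh* differed by 0.84 ± 0.16, 1.01 ± 0.17 and 0.56 ± 0.16 (adjusted p = 0.00158, 4.48e-04 and 0.039). Corrected for GC, 1 member, *Ddit3*, was left in *Baf180* KD (0.77 ± 0.17, edgeR adjusted p = 0.0111), where 4.04% of genes had a higher response, and none in *Brd9* KD, where 0.00605% of genes differed. In *Baf250a* KD *Ddit3* (1.24 ± 0.19, adjusted p = 3.48e-04), *Psat1* (0.73 ± 0.14, adjusted p = 0.00171) and *Phgdh* (0.53 ± 0.12, adjusted p = 0.00591) were still higher, and *Chac1* (-0.52 ± 0.17, adjusted p = 0.0379) and *Sesn2* (-0.40 ± 0.11, adjusted p = 0.0156) were lower, against 8.36% of genes higher and 8.08% lower. Libraries were left out without this correction, for the counts of 7, 5 and 6. The count in *Baf180* KD was 1 without the second scr Zn library, 2 without its own first Zn library or the second untreated scr library, and 4 without its second untreated library. In *Baf250a* KD it was 2 without the first Zn library and 3 without the second untreated scr library. In *Brd9* KD it was 0 without any 1 of its second untreated, its first Zn, the second untreated scr and both scr Zn libraries.

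As a description of how the members varied together, Pearson's r of log2 CPM was taken over the 23 deeper libraries, which share cell lines, so that the points are not independent. Over the 45 pairs of members r ran from 0.299 to 0.984 (median 0.817), and after centering each cell line from -0.04 to 0.931 (median 0.653). *Psat1* and *Shmt2* had the highest centered value. *Atf4* and *Ddit3* had 0.491 across the libraries and -0.04 within cell lines. Among 10421 genes with a mean of at least 5 CPM, the genes most like *Asns* were *Slc7a5* (0.979), *Fzr1* and *Slc1a5* (both 0.978), *Cinp* (0.977) and *Nup205* (0.976). Those most like *Ddit3* were *Map3k4* (0.955), *Timmdc1* and *Rassf3* (both 0.940), *Gtpbp2* (0.935) and *Lars* (0.931). Those most like *Atf4* were *E2f4* (0.967), *Pcbp2* and *AI506816* (both 0.960), *Eif3l* (0.956) and *Slc35a4* (0.955).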

How the data were processed

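RNA-seq was performed on 24 libraries from C2C12 myoblasts, 2 in each of 12 conditions. Per the study's methods, ribosomal RNA was depleted, strand-specific paired-end libraries were aligned with STAR (mm10, unique hits only), and read pairs were counted by strand with featureCounts; versions are not given in the sources used here. The authors deposited raw counts, without normalization, in 1 table of 55291 gene symbols. Their 14 further tables hold DESeq2 comparisons (log2 fold changes and adjusted p-values) and were not used. Samples were grouped by title, because a treatment tag in the labels contradicts the titles.

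The 10 members and the wider lists were chosen with earlier results of these data known. All members are named in every comparison. Genes named from the wider lists are examples. They were chosen among those past the threshold, within the 4 of largest change per list and comparison, and not all of these are named. The genes most like *Atf4*, *Ddit3* and *Asns* were the 5 of highest Pearson correlation.

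Counts were tested in R 4.3.3 with edgeR 4.0.16 (estimateDisp, glmQLFit and glmQLFTest, TMM, filterByExpr), with Benjamini-Hochberg adjustment over all genes tested and a threshold of 0.05. The SE of an edgeR value was derived from its test, as the absolute log2 fold change divided by the square root of the F statistic. There were 17 comparisons: 8 metal responses, each fitted on the 6 libraries of a line, 3 comparisons of untreated KD and scr on 4 libraries, and 6 differences of metal responses on all 24. Scripts were tested on simulated data. Alternatives were DESeq2 1.42.0, RLE size factors, genes with at least 1 count, the replicate number as a block, all 24 libraries in the fit, each library left out in turn, and a correction for GC content and transcript length. The last used a spline with 5 degrees of freedom per library as an offset, from the longest GENCODE M21 transcript (GRCm38) of 53699 symbols. Depth sets the precision: 3 counts of *Atf3* in the shallow library give a far wider error than 72 or more elsewhere, and reads without molecular identifiers are not independent molecules.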

Additional observations from a re-analysis of the deposited data

Results flagged for a closer look

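Metal responses that differed between a KD and scr were picked out because the difference of the log2 fold changes itself passed edgeR's test over all 24 libraries. For Cu in *Baf180* KD these were *Trib3* (0.77), *Chac1* (0.66) and *Phgdh* (0.80). For Zn in *Baf180* KD they were *Ddit3* (0.66), *Atf3* (0.69), *Trib3* (0.88), *Sesn2* (0.45), *Psat1* (0.49), *Phgdh* (0.84) and *Shmt2* (0.50). For Zn in *Baf250a* KD they were *Ddit3* (1.07), *Atf3* (0.66), *Psat1* (0.96), *Phgdh* (1.01) and *Shmt2* (0.69). For Zn in *Brd9* KD they were *Ddit3* (0.64), *Atf3* (0.93), *Trib3* (0.96), *Chac1* (0.66), *Sesn2* (0.47) and *Phgdh* (0.56). Of all genes, 5.39% had a higher response than in scr for Cu in *Baf180* KD. For Zn, 16.1%, 17.3% and 5.86% did in *Baf180*, *Baf250a* and *Brd9* KD.

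The slope of log2 CPM on GC content moved with the contrast that all Zn differences share. It was 0.214 per 10 points in untreated scr and -0.294 in scr with Zn, against -0.074 and 0.116 in *Baf180* KD, -0.133 and 0.208 in *Baf250a* KD and -0.140 and -0.108 in *Brd9* KD. After correction for GC and length the counts of differing members went from 7 to 1 in *Baf180* KD and from 6 to 0 in *Brd9* KD, and stayed at 5 in *Baf250a* KD, where *Sesn2* and *Chac1* took the place of *Atf3* and *Shmt2*. The share of all genes with a higher Zn response also fell. It went from 16.1% to 4.04% in *Baf180* KD, from 5.86% to 0% in *Brd9* KD and from 17.3% to 8.36% in *Baf250a* KD.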

How the results depend on the processing

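The untreated KD comparisons changed least. The counts of lower members stayed at 8, 10 and 5 in *Baf180*, *Baf250a* and *Brd9* KD in DESeq2, with RLE size factors, without the filter, with the replicate block and in the fit of all 24 libraries. With each library left out in turn they ran from 7 to 9, from 9 to 10 and from 2 to 7. The metal results moved more, and the cause was not tested. The share of all genes called is not given under each of these settings. The counts therefore do not separate a move of the members from a move of all genes. For Zn in scr 2 members passed, against 0 with the GC correction, 5 in the fit of all 24 libraries, 4 without the filter and 0 to 1 with a library left out. For Zn in *Baf180* KD, 0 became 1 in DESeq2 and 1 without the filter (*Phgdh*), and 0 was found with any library left out. For Cu in *Baf250a* KD, 1 became 0 in DESeq2, 0 in the fit of all 24 libraries and 0 with any library left out. For Zn in *Baf250a* KD, 5 became 3 in DESeq2, 2 in the fit of all libraries and 0 to 5 with a library left out. For Cu in *Brd9* KD, 0 became 3 in DESeq2 and 7 without the filter, where 0.938% and 1.16% of genes were higher. For Zn in *Brd9* KD 0 became 2 without the filter. For Cu in *Baf180* KD, 7 became 5 with the GC correction and 0 to 6 with a library left out. For the Cu response of *Baf180* KD against scr, 3 became 5 in DESeq2, 1 with the GC correction, 5 with RLE size factors, 6 without the filter and 0 to 7 with a library left out. For the Cu response of *Brd9* KD against scr, 0 became 3 without the filter and 0 to 1 with a library left out. For the Zn response against scr, 7 became 1 with the GC correction and 1 to 7 with a library left out in *Baf180* KD, 5 became 2 to 7 with a library left out in *Baf250a* KD, and 6 became 0 with the GC correction and 0 to 6 with a library left out in *Brd9* KD. Leaving out libraries gave 0 in every fit of Cu in scr, of either metal in *Brd9* KD and of the Cu response of *Baf250a* KD against scr. A lone library left in a group is assumed to vary like the other groups. Corrected for GC, *Sesn2* reversed in the Zn response of *Baf180* KD (-0.05 against 0.45) and of *Baf250a* KD (-0.40 against 0.19).

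The replicate numbers come from the labels, and nothing says that they mark a shared day or batch. Same-numbered libraries correlated by 0.134 to 0.247 in *Baf180* KD, in each of its 3 pairs of groups, by 0 to 0.017 in *Baf250a* KD, by -0.082 to 0.187 in *Brd9* KD, by -0.185 to 0.28 in scr and by -0.137 to -0.023 between a KD and scr. With 2 replicate numbers the numbers were not taken as pairs. With the replicate block the count went to 0 for Zn in scr and to 2 for Zn in *Baf180* KD (*Phgdh* and *Trib3*, edgeR adjusted p = 0.014 and 0.0466), from 7 to 8 for Cu in *Baf180* KD, and stayed within 1.5 times of the reported count elsewhere.

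Depth limits *Atf3* in *Baf250a* KD with Zn, which rests on 3 counts in the shallow library. With 2 libraries a group, a member that did not pass is not shown to be unchanged.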

Other observations

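The genes of the wider lists moved in both directions under the metals. *Slc7a11*, the cystine transporter that supplies glutathione synthesis, was higher with Cu in *Baf250a* KD (log2 1.17 ± 0.16, edgeR adjusted p = 7.49e-05) and in *Brd9* KD (0.95 ± 0.15, adjusted p = 0.0492), where it was the 1 gene of the 78 tested to pass, and with Zn in scr (1.06 ± 0.18, adjusted p = 0.0275), where it did not pass with the GC correction (0.37, adjusted p = 0.118). With Cu in *Baf180* KD the 7 lower genes were *Nupr1*, a stress-induced chromatin protein (-0.93 ± 0.12), the transcription factor gene *Maf* (-0.85 ± 0.12), the endoplasmic reticulum chaperone gene *Hsp90b1* (-0.76 ± 0.10), *Eif2s2* (-0.72 ± 0.12), *Dnajb9* (-0.71 ± 0.15), *Eif2ak2* (-0.69 ± 0.12) and *Eif2s1* (-0.30 ± 0.08), with edgeR adjusted p from 0.00442 to 0.0362. Corrected for GC, *Dnajb9*, *Eif2s2* and *Eif2s1* did not pass (edgeR adjusted p = 0.163, 0.0651 and 0.922). The Cu response was lower than in scr for all 7: *Dnajb9* (-1.18 ± 0.23), *Eif2s2* (-1.11 ± 0.24), *Hsp90b1* (-1.08 ± 0.25), *Eif2ak2* (-1.02 ± 0.21), *Maf* (-0.86 ± 0.19), *Nupr1* (-0.79 ± 0.22) and *Eif2s1* (-0.55 ± 0.15), with edgeR adjusted p from 0.00826 to 0.0278. Corrected for GC, *Dnajb9*, *Eif2s2*, *Hsp90b1* and *Eif2s1* did not pass (adjusted p = 0.133, 0.069, 0.0534 and 0.783). Both tests use the same Cu and untreated libraries of *Baf180* KD, so the second does not check the first. Of all genes, 7.41% had a lower and 5.39% a higher Cu response in *Baf180* KD than in scr, and 0.684% and 0.533% with the correction. The response was higher for *Gdf15* (0.78 ± 0.22), *Eif2b5* (0.77 ± 0.14), *Psph* (0.76 ± 0.17), *Mars1* (0.62 ± 0.15), *Yars* (0.56 ± 0.15), *Cars* (0.54 ± 0.14), *Jun* (0.50 ± 0.12) and *Shmt1* (0.41 ± 0.12), with adjusted p from 0.00826 to 0.0324. Of these *Eif2b5* alone passed with the correction (adjusted p = 0.0371). *Nupr1* and *Maf* were higher in untreated *Baf180* KD than in scr, by 0.91 ± 0.19 and 1.91 ± 0.16 (edgeR adjusted p = 0.00266 and 3.18e-06). The same untreated *Baf180* KD libraries entered the test of Cu, so this and the fall with Cu are not independent.

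With Zn in *Baf250a* KD, 13 genes of the wider lists were higher and 2 lower of 77 tested, where 8.85% and 7.02% of all genes were. The higher genes included *Mthfd2*, a mitochondrial folate enzyme (0.64 ± 0.10, edgeR adjusted p = 1.61e-04), and *Manf*, an endoplasmic reticulum stress factor (0.62 ± 0.11, adjusted p = 5.29e-04). With the correction 7 were higher and 4 lower, against 6.42% and 4.82% of all genes. In scr with Zn 7 genes of the lists were higher and 14 lower of 77, where 10.5% and 7.13% of all genes were, and with the correction none passed in edgeR.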
